A study of Mus musculus with 6 samples.

Results

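The FOS family of transcription factors was followed in primary cultured microglia, the resident macrophages of the brain, from fosB-null and wild-type mice. The 4 genes Fos, Fosb, Fosl1 and Fosl2 were found by their symbol in the platform's annotation, and each had exactly 1 probe set. They are 4 of the 19938 genes that have a probe set with a single gene symbol. No further probe set listed any of them among several symbols. The fosB-null cells (G/G) came from mice homozygous for fosBG, a null-mutant form of Fosb. That line was kept on C57BL/6J by backcrossing, and heterozygotes of generation N20 were intercrossed. The wild-type cells came from C57BL/6J mice. In both groups the cerebral cortex of pups aged 2 days was the source, microglia were collected after 10 days in culture and replated for 24 h, and no stimulus is named in the labels. There were 3 arrays of each group, called biological replicates and numbered 1 to 3, and no label says whether a culture came from 1 animal or several.

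FOS proteins are basic leucine zipper factors. They do not bind DNA stably on their own and act as dimers with a JUN protein, forming the AP-1 complex. Fos and Fosb are immediate early genes, switched on within minutes of a stimulus, while Fosl1 and Fosl2, which encode Fra-1 and Fra-2, are induced more slowly and are themselves AP-1 targets in several cell types. Fosb also gives a truncated splice form, ΔFosB, which lacks the carboxy-terminal activation domain and is long-lived. In microglia AP-1 is known for its part in inflammatory activation. The comparison asks whether a relative of Fosb was present at a higher level where Fosb is disrupted.

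The proximal promoters of Fos, Fosb and Fosl2, the members with an entry in the promoter set used, are given first. They come from RefSeq (GRCm38.p6), each from 250 bases before to 50 bases after the start of the gene and read 5′ to 3′ along the gene. Capitals mark matches to any of 5 motifs searched on both strands, which were the AP-1 site TGANTCA, the cyclic AMP response element TGACGTCA, its core TGACG, the TATA box TATAAA and the CArG box bound by serum response factor.
Fos promoter, chr12:85473640-85473939, + strand: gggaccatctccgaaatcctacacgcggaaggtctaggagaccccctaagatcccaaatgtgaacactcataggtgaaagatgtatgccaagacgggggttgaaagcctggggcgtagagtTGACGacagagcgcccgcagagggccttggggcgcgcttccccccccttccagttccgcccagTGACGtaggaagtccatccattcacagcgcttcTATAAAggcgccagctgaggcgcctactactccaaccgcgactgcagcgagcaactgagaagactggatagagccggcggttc
Fosb promoter, chr7:19309996-19310295, - strand: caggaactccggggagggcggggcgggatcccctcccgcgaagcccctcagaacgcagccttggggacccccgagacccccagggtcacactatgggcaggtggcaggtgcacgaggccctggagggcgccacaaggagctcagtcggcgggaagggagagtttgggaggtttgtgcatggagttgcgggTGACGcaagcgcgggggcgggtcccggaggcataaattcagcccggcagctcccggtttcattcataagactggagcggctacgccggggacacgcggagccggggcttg
Fosl2 promoter, chr5:32136222-32136521, + strand: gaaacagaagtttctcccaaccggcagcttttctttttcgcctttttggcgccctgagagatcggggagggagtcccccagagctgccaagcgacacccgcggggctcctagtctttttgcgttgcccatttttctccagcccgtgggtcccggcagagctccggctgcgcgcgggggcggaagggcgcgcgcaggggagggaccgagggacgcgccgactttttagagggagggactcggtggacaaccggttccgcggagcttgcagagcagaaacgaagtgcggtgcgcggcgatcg
The Fos window held the core at positions -129 to -125 and -66 to -62 from the gene's start, and TATAAA at -33 to -28. The Fosb window held 1 core, at -60 to -56. The Fosl2 window held none of the 5 motifs. The promoter set used here held no entry for Fosl1. Among 32851 promoter windows of the same length, 20.8% held the core, a stretch of the whole element, 13.6% TATAAA, 7.81% TGANTCA, 1.79% the whole element and 1.63% a CArG box. A match is a description of these letters only, and bases outside the windows were not searched, so a site further away would be missed.

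Before the results, 1 property of the arrays bears on every value. In 45.2% to 51.3% of the 35557 probe sets the value was identical between the fosB-null and the wild-type array of a replicate number, and arrays of different numbers had at most 3 values in common. Same-numbered arrays are therefore shown as 3 pairs, and each difference of a member is given within pairs too. The main test did not use the pairs, and a fit with the replicate number as a block is given beside it. The sources used here record no step that would give such ties, and a tie is not a measurement of equality. Microglial markers lay high in the arrays' distribution, the 7 measured ones on average above 64.7% to 99.4% of probe sets, while the 5 astrocyte markers lay above 22.0% to 57.1% and were exactly tied in all pairs.

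No member of the family had a higher mean in fosB-null microglia. All 4 means were lower than in wild-type, and of the 12 differences within pairs 10 were below 0, 2 were exact ties and 0 were above 0. Over all probe sets tested, 19.9%, 22.0% and 31.4% were below 0 in pairs 1, 2 and 3. The member median was -0.21 on the log2 scale, beside a median of 0.00 over all 23410 probe sets tested, of which 41.3% were lower, 30.9% higher and 27.8% at a difference of 0. None of the 4 passed the threshold, an adjusted p under 0.05 in limma's moderated test with Benjamini-Hochberg adjustment over all probe sets tested. That threshold was passed by 0.00427% of the probe sets tested, which is C5ar2 alone. At an unadjusted p under 0.05, 1 member (Fos) was counted, against 0.722% of all probe sets tested. With the replicate number as a fixed block in the limma fit, the count was 1 (Fosb), against 2.31%. With it as a random block the count was 3 (Fos, Fosb and Fosl2), against 2259 of the 23410 probe sets tested. The 4 means were also lower after quantile normalization and after centring each array on its median, but these scalings shift most values down, and 71.9% and 84.0% of all probe sets tested were then lower.

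**Figure D1:**
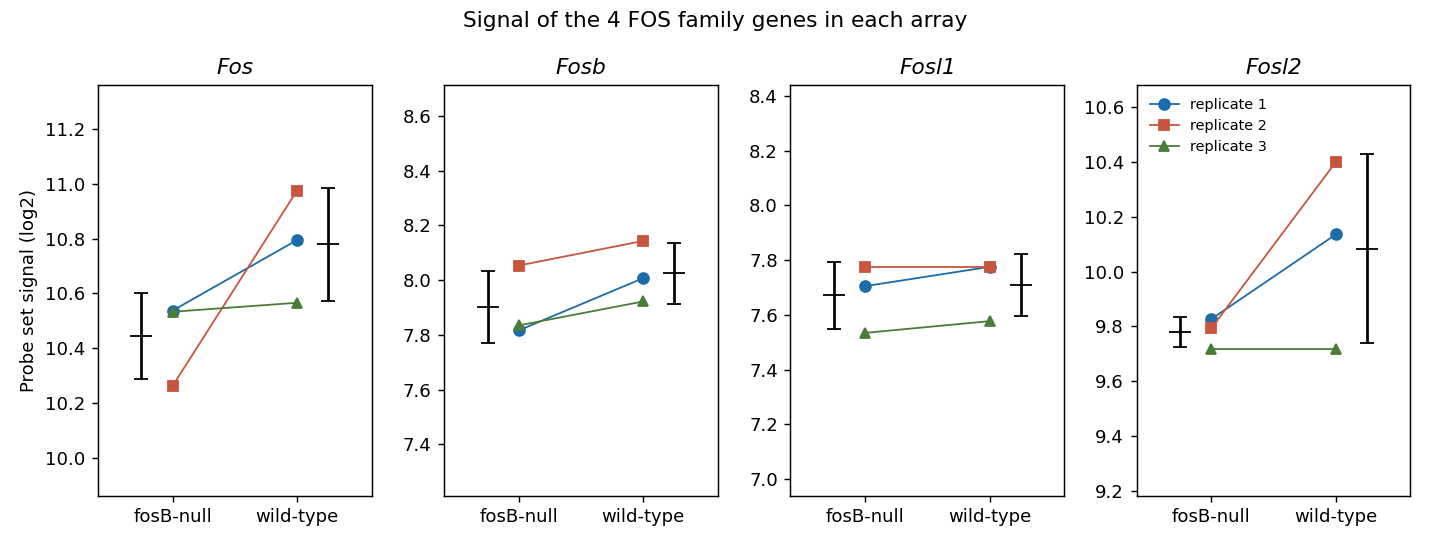
Each panel shows the log2 signal (vertical axis, the same span of values in every panel) of a FOS family gene in fosB-null (left) and wild-type (right) arrays, with lines joining same-numbered arrays and black bars giving the mean ± SD over 3 arrays. The fosB-null arrays lie below or level with their wild-type partners for all 4 genes, and only for Fos do the groups not overlap.

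Fosb, the disrupted gene, had a probe set signal near the middle of the arrays' distribution in both groups. Its log2 signal was 7.82, 8.05 and 7.83 in fosB-null arrays 1, 2 and 3, against 8.01, 8.14 and 7.92 in wild-type arrays 1, 2 and 3. The groups overlapped, because fosB-null array 2 lay above wild-type arrays 1 and 3, although each fosB-null array lay below its partner, by 0.19, 0.09 and 0.09 in size. The means were 7.90 ± 0.13 in fosB-null and 8.02 ± 0.11 in wild-type arrays (SD, n = 3 each), and differed by -0.12 (standard error 0.10), with a 95% interval of -0.35 to 0.11. The limma adjusted p was 1 and the exact permutation p, two-sided, was 0.3, where 3 arrays against 3 cannot give less than 0.1. The signal lay above 50.1% to 54.4% of the probe sets of an array. No detection call was used here, so it is not known whether it stood above background in either group. No source used here places the probe set on the gene, inside or outside the mutated stretch, so the value checks neither the labels nor the loss of the protein, and 1 probe set does not part FosB from ΔFosB.

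The Fosb values also moved with the replicate number. Array 2 was the highest of its group for Fosb in both genotypes, and the array medians were also highest there, at 7.92 in fosB-null and 7.89 in wild-type arrays, against 7.76 to 7.83 in the other 4 arrays. With each array centred on its median the difference was -0.15 (standard error 0.07), with an unadjusted limma p of 0.0853. That centring also moved the median difference over all probe sets tested to -0.02, and 84.0% of them were then lower. In the fit with a replicate block the 95% interval was -0.24 to -0.01, with an unadjusted limma p of 0.0452 and an adjusted p of 0.674. An unadjusted limma p under 0.05 was reached by 2.31% of all probe sets tested in that fit. The 10 measured genes next to Fosb, 5 on each side along the chromosome in the GRCm38.p6 gene order, had differences of -0.59 to 0.05, with 5 lower, 2 higher and 3 at 0. The adjoining genes, Ercc1 and Rtn2, differed by -0.01 and -0.02, and the largest difference of the 10 was that of Ercc2, a helicase subunit of the repair and transcription factor TFIIH.

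Fos encodes c-Fos, the founding member of the family. Its difference and that of Fosl2 were the largest of the 4, and their order depended on the arrays used. Its log2 signal was 10.54, 10.26 and 10.53 in fosB-null arrays 1, 2 and 3, against 10.79, 10.98 and 10.57 in wild-type arrays 1, 2 and 3. The groups did not overlap, as was the case for 1.12% of all probe sets tested, but the gap between the highest fosB-null and the lowest wild-type array was only 0.03. The means were 10.44 ± 0.16 in fosB-null and 10.78 ± 0.21 in wild-type arrays (SD, n = 3 each). They differed by -0.33 (standard error 0.13), which is 1.26-fold lower, with an unadjusted limma p of 0.0368 and an adjusted p of 1. The exact permutation p, two-sided, was 0.1, the smallest that 3 arrays against 3 allow.

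The size of the Fos difference depended on the pair. It was -0.26 in pair 1, -0.71 in pair 2 and -0.03 in pair 3, because wild-type array 2 was the highest and fosB-null array 2 the lowest of the 6. Without both arrays of replicate 2 the difference was -0.15. In the fit with a replicate block the standard error was 0.18, the unadjusted limma p 0.192 and the adjusted p 0.674.

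Fosl2 encodes Fra-2. Its log2 signal was 9.83, 9.79 and 9.72 in fosB-null arrays 1, 2 and 3, against 10.14, 10.40 and 9.72 in wild-type arrays 1, 2 and 3. The fosB-null arrays were close together, with a range of 0.11, and the wild-type arrays spread over 0.68. Pair 3 was an exact tie at the lowest value of either group, and pairs 1 and 2 differed by -0.31 and -0.61. The means were 9.78 ± 0.06 in fosB-null and 10.08 ± 0.34 in wild-type arrays (SD, n = 3 each), and differed by -0.31 (standard error 0.17). The limma unadjusted p was 0.109, the adjusted p 1 and the exact permutation p, two-sided, 0.4. Without wild-type replicate 2 the difference was -0.15, and without wild-type replicate 3 it was -0.49, with an adjusted p of 1.00 in both limma fits.

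Fosl1 encodes Fra-1. It differed least. Its log2 signal was 7.70, 7.77 and 7.53 in fosB-null arrays 1, 2 and 3, against 7.78, 7.77 and 7.58 in wild-type arrays 1, 2 and 3. Pair 2 was an exact tie, and pairs 1 and 3 differed by -0.07 and -0.04. The groups overlapped over nearly their whole range, and array 3 was the lowest of its group in both. The means were 7.67 ± 0.12 in fosB-null and 7.71 ± 0.11 in wild-type arrays (SD, n = 3 each), and differed by -0.04 (standard error 0.10), with a limma adjusted p of 1 and an exact permutation p, two-sided, of 0.6. The direction turned to 0.03 without fosB-null replicate 3. The signal lay above 43.8% to 50.3% of the probe sets of an array, and no detection call was used here, so it is not known whether it stood above background.

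For the question of compensation the upper end of each interval is the relevant value. The 95% intervals of the ratio of fosB-null over wild-type reached from 0.641 to 0.981 for Fos, from 0.832 to 1.14 for Fosl1 and from 0.616 to 1.06 for Fosl2. With a replicate block the upper ends were 1.28 for Fos, 1.02 for Fosl1 and 1.23 for Fosl2. These intervals are not adjusted for the number of genes, and ratios of array signals can understate ratios of RNA. They concern cultures with no stimulus named in the labels and RNA rather than protein.

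**Figure D2:**
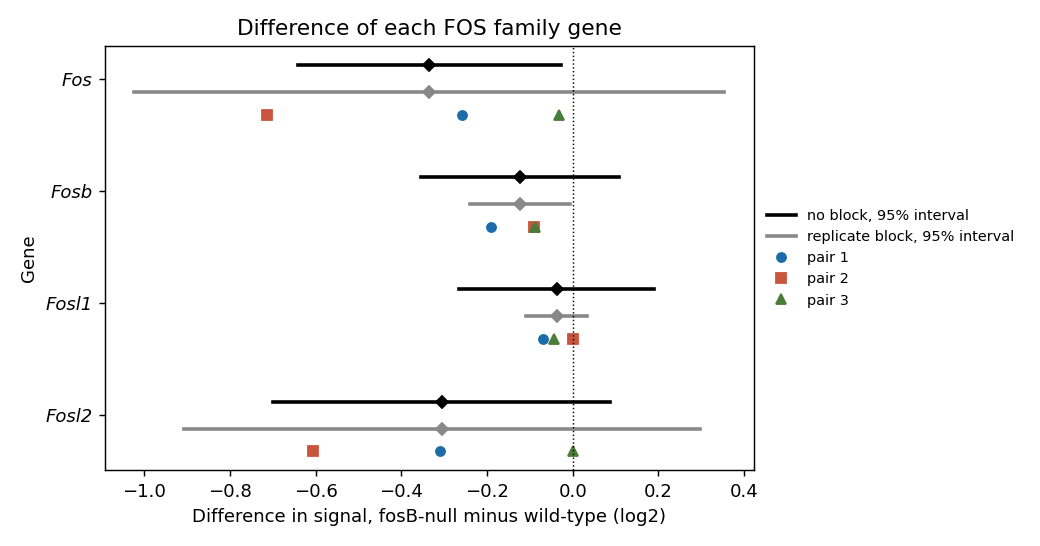
The horizontal axis is the difference in log2 signal, fosB-null minus wild-type, for each FOS family gene. Diamonds and bars give the limma estimate with its 95% interval without a block (black) and with the replicate number as a block (grey), and the coloured symbols beneath give the 3 pairs. No pair lies above 0 for any of the 4 genes.

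The JUN partners of the FOS proteins, and other AP-1 and related leucine zipper genes, did not pass the threshold either. Of the JUN proteins, Junb differed by -0.16 (standard error 0.14), Jun by -0.11 (0.13) and Jund by -0.01 (0.10), and the sign of Jund turned with quantile normalization. Junb had a log2 signal of 9.47, 9.69 and 9.60 in fosB-null arrays, against 9.60, 10.04 and 9.60 in wild-type arrays. Its largest difference was in pair 2, as for Fos and Fosl2, and pair 3 was an exact tie, as for Fosl2. Jun differed most in pair 1, by -0.29, and was tied in pair 2. Among 12 other measured AP-1 and related leucine zipper genes 9 were lower, 2 higher and 1 at 0, with a median of -0.04. Of these 12, 0 were called and 0 had an unadjusted p under 0.05 in limma. Those with the lowest p were Mafk, a small MAF protein without an activation domain, with -0.17, Batf with -0.06, Atf4, a factor of the integrated stress response, with -0.12, and Atf3, a stress-induced factor that dimerizes with JUN proteins, with -0.06.

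Genes that act on Fos showed small differences. Of 20 measured regulators of Fos transcription 14 were lower, 2 higher and 4 at 0, with a median of -0.03, and 0 were called or reached an unadjusted p under 0.05 in limma. Rps6ka3 and Rps6ka5, which encode kinases of the RSK and MSK type downstream of the mitogen-activated kinases, were the 2 higher ones, each with 0.12 and above 0 in all 3 pairs, as were 2.2% of all probe sets tested. Elk3, a ternary complex factor that binds with serum response factor, differed by -0.10, as did Stat3. Srf itself differed by -0.04 and Creb1, which binds the cyclic AMP response element, was exactly tied in all pairs. With quantile normalization 11 were lower and 9 higher. Of 6 regulators of Fos mRNA decay 3 were lower and 3 higher, with 0 called and 0 at an unadjusted p under 0.05. Those with the lowest p were Zfp36, whose product binds the AU-rich elements of short-lived mRNAs, with -0.14, Hnrnpd with 0.05, Khsrp with 0.02, which turned with median centring, and Zfp36l2 with -0.01. With the replicate block, 2.31% of all probe sets tested had an unadjusted limma p under 0.05. So did 3 of the 20 (Mrtfb lower, Rps6ka3 and Rps6ka5 higher) and 1 of the 6 (Hnrnpd higher).

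Other immediate early genes had lower means more often than higher ones. Of 27 measured, 20 were lower, 4 higher and 3 at 0, with a median of -0.04, and 12 were lower in all 3 pairs, as were 5.57% of all probe sets tested. None passed the adjusted threshold in limma. An unadjusted p under 0.05 was reached by 5, all lower, where 0.453% of all probe sets tested were lower at this p. They were the orphan nuclear receptor genes Nr4a1 (-0.92) and Nr4a3 (-0.42), Gadd45b, a stress-response gene (-0.43), Dusp1, a phosphatase of mitogen-activated kinases (-0.30), and Sik1, a salt-inducible kinase (-0.28). Nr4a1 had a log2 signal of 9.29, 8.90 and 9.37 in fosB-null arrays, against 10.24, 10.51 and 9.57 in wild-type arrays. It thus had the same order of pairs as Fos, with the largest difference in pair 2 and the smallest in pair 3. Gadd45b did not, with its largest difference, -0.67, in pair 3. Egr1, the prototype zinc finger immediate early gene, differed by -0.18. With the replicate block 6 of the 27 had an unadjusted limma p under 0.05, against 2.31% of all probe sets. Nr4a1 was not among them (unadjusted limma p of 0.117), and Dusp5 (-0.27) and Dusp6, which was higher (0.10), were.

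**Figure D3:**
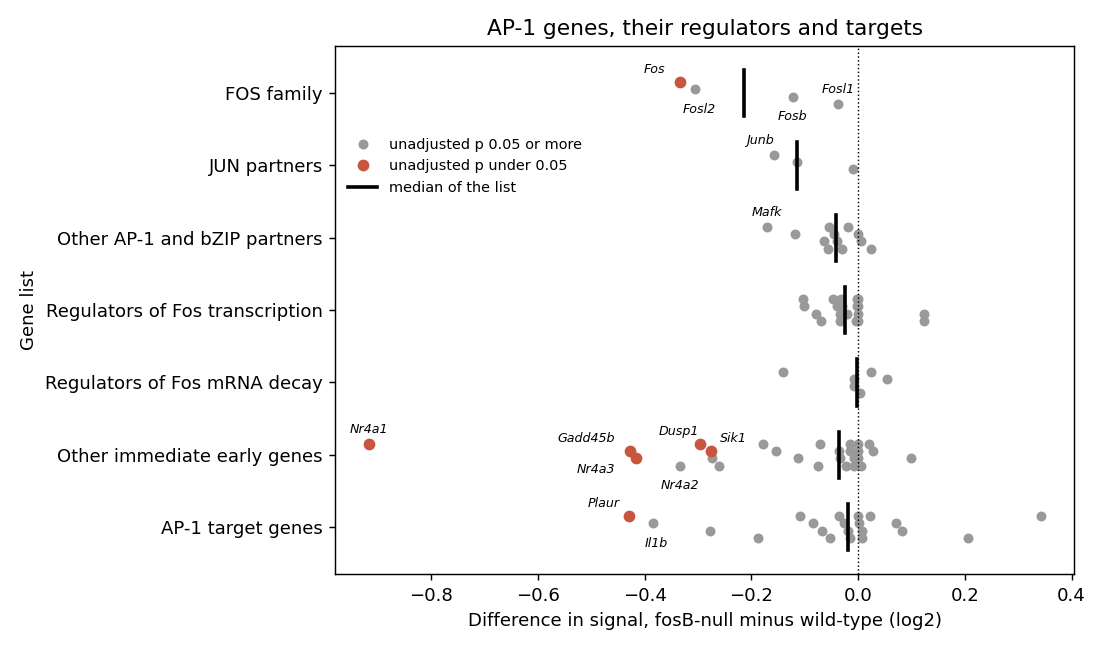
Each point is a gene placed by its difference in log2 signal, fosB-null minus wild-type (horizontal axis), in lists given by row, with red for an unadjusted limma p under 0.05 and a black bar for the median of the list. The 4 FOS genes lie left of 0, and the medians of the 6 other lists lie between -0.11 and 0.00, with a few immediate early genes far to the left.

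The probe sets most like each member over the 6 arrays were ranked by Pearson correlation of the log2 signal. Only single-symbol probe sets with no exact tie in a pair were ranked. Predicted or provisional gene names, small non-coding RNAs and olfactory and vomeronasal receptor genes were passed over. For Fos they were Lsm7 (r = 0.98), Nr4a1 (0.98) and Chd7 (0.97), and 1.15% of the 3037 ranked exceeded 0.9. For Fosl2 they were Nr4a2 (0.99), Mfap3l (0.99) and Ifitm2 (0.98), with 4.02% above 0.9. For Fosb they were Rmdn3 (1.00), Polr2g (0.99) and Ddt (0.99), with 4.18% above 0.9. Fosl1 was like many genes, with 14.7% above 0.9, led by Vps29, Frmd8 and Vat1. These are descriptions over 6 arrays, of which same-numbered ones share many identical values, and the differences of Rmdn3 and Vps29 between genotypes were -0.05 and -0.04.

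The likeness of Fosl2 and Nr4a2 lay in 2 wild-type arrays. Nr4a2 had a log2 signal of 8.98, 8.95 and 8.83 in fosB-null arrays, against 9.26, 9.55 and 8.94 in wild-type arrays. Wild-type arrays 1 and 2 stood above the other 4 for both genes, and for Nr4a1 and Fos as well.

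**Figure D4:**
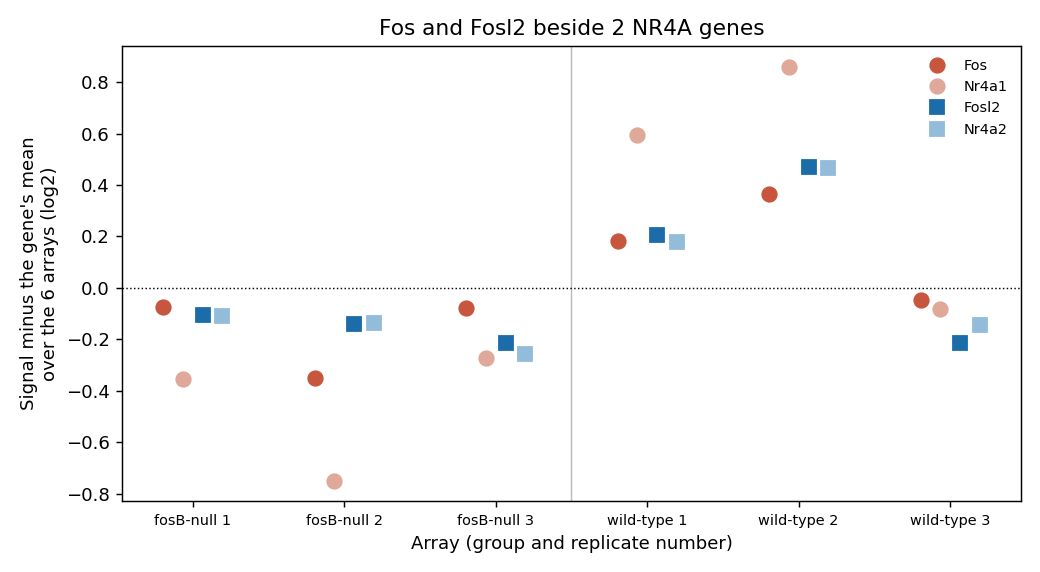
The vertical axis gives the log2 signal minus the gene's own mean over the 6 arrays for Fos, Fosl2 and 2 NR4A genes, by array along the horizontal axis. Wild-type arrays 1 and 2 lie above 0 for all 4 genes, while wild-type array 3 and the 3 fosB-null arrays lie below 0.

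Genes known as AP-1 targets were divided. Of 21 measured, 12 were lower, 8 higher and 1 at 0, with a median of -0.02. None passed the adjusted threshold in limma. The 1 gene with an unadjusted limma p under 0.05, against 0.722% of all probe sets tested, was Plaur, the urokinase receptor. It differed by -0.43. Its log2 signal was 10.17, 10.53 and 10.27 in fosB-null arrays, against 10.74, 10.78 and 10.73 in wild-type arrays. The groups did not overlap, as was the case for 1.12% of all probe sets tested. Plaur lies on the same chromosome as Fosb, where linkage to the allele and the loss of FosB cannot be told apart. The C5a receptors named in the title of the series, C5ar1 and C5ar2, lie there too, and their differences were -0.90 and -1.80. The members other than Fosb lie on chromosomes 12 (Fos), 19 (Fosl1) and 5 (Fosl2), and Fosb on chromosome 7.

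Markers of other cell types were compared alongside. Oligodendrocyte markers had a list mean of 8.38 to 8.57 in fosB-null and 8.41 to 8.71 in wild-type arrays, with 4 of 5 lower and 1 at 0. Of the neuron markers 2 of 5 were lower and 2 higher, of the fibroblast and mural cell markers 0 of 5 were lower and 4 higher, and of the endothelial markers 2 of 4 were lower and 2 higher, with 0 called in any list. The list means of the 7 microglial markers were 11.34 to 11.48 in fosB-null and 11.25 to 11.46 in wild-type arrays, with 1 lower and 6 higher. No marker is at 0 on this scale, and the part of these cells in the FOS family values was not tested. In such bulk cultures fewer cells of a type and less RNA per cell cannot be told apart.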

How the data were processed

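The deposited values are log2 signals, 1 per probe set and array, made by the authors with Affymetrix Expression Console from 100 ng of RNA per sample, per the submitters' processing notes and the labels' protocols. Not given in the sources used here are summary method, normalization and array build. The values themselves show the log2 scale, running from 1.73 to 14.6, with array medians of 7.76 to 7.92.

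Symbols came from the platform's annotation and were updated by gene number through RefSeq (GRCm38.p6), where 21698 of 21789 probe sets with a single symbol were found. The RefSeq table served for names, chromosomes and gene order only. Differences are fosB-null minus wild-type from limma 3.58.1 (R 4.3.3; lmFit and eBayes, two-sided, no block, no filter), adjusted by Benjamini-Hochberg over the 23410 probe sets with a symbol. The fit was also run on simulated data with independent arrays and no exact ties, so that run does not bear on the pairing seen here. The number of arrays limits the precision.

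Once group means were subtracted, the 2 arrays of a replicate number correlated at 0.62, 0.56 and 0.58 (numbers 1, 2 and 3). Same-numbered samples were therefore taken as pairs for the within-pair differences and the replicate block, on the evidence of the values and not of the labels. The main limma fit and the exact permutation test did not use the pairing. The replicate block was an alternative, and its prior degrees of freedom were 0.358, against 2.84 without it. P-values of the main limma fit set a difference against the spread between arrays of a group, moderated over all probe sets tested. That spread includes what same-numbered arrays share.

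The members, lists and tests were chosen with earlier results of these data known. In each list, genes with an unadjusted p under 0.05 are named, or else up to 4 with the lowest p. Genes named besides (Srf, Creb1, Egr1, Nr4a2, Ercc1, Rtn2, Ercc2, Mrtfb, Dusp5 and Dusp6) were chosen after their values were seen. List genes with no single-symbol probe set were not analysed here.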

Additional observations from a re-analysis of the deposited data

How the results depend on the processing

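The differences of Fos, Fosb and Fosl2 stayed below 0, and none of the 4 members passed the adjusted threshold, under every alternative run. Rescaling was by quantiles or by array medians. The fit was varied by array weights, robust eBayes or a trend on intensity, by testing other probe sets (without the dimmest 40%, single symbols only, or all), by a fixed or random replicate block and by leaving out 1 array or 1 pair, with an exact permutation test beside it. Leaving out single arrays or pairs gave -0.49 to -0.15 for Fos, -0.20 to -0.06 for Fosb, -0.10 to 0.03 for Fosl1 and -0.49 to -0.15 for Fosl2. Fosl1 was above 0 only without fosB-null replicate 3 (0.0305). The cause was not tested.

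With the random replicate block the limma adjusted p was 0.429 for Fos, 0.204 for Fosb, 0.713 for Fosl1 and 0.419 for Fosl2. With the fixed replicate block it was 0.674 for each, and neither block changed a call of a member. Probe sets with unadjusted limma p as far apart as 0.00133 (Nck2) and 0.376 (Adhfe1) had that same adjusted value with the fixed block. It therefore does not tell the members apart. Fits over the 3520 probe sets with no exact tie, added after the data were seen, with the replicate block gave 0.326 for Fos and 0.305 for Fosb.

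Over all tested probe sets, 1 was called. The limma count was 0 with the replicate block (541 at an unadjusted p under 0.05), 47 with the random block (13 higher and 34 lower), 0 for an ordinary test without moderation (104) and 169 at an unadjusted p under 0.05. Leaving out arrays or pairs gave 0 to 2. It was 2 without wild-type replicate 3 and 0 without both arrays of replicate 1, 2 or 3, with 76, 109 and 263 at an unadjusted p under 0.05.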
